A study of Homo sapiens with 4 samples.

Results

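Chromatin contacts of the RNAs of 54 kinase family genes were examined, out of 2435 protein-coding RNAs and 2637 RNAs in all. The genes were chosen by name alone: every protein-coding RNA whose symbol begins with 1 of 16 kinase stems was taken (MAPK with MAP2K, MAP3K and MAP4K, PRKC, PRKA, PRKD, PIK3, PIP4K with PIP5K, CDK, STK, CSNK, CAMK, DYRK, AKT, ROCK, PAK and JAK), except CDK6, which was left out. The name rule itself uses no measured value, beyond the RNA having at least 1 connection in the table. It was set, however, with earlier results of these data known. A name does not make a kinase, and 6 of the 54 genes encode proteins known not to be catalytic subunits. These are PRKAR1B and PRKAR2B (regulatory subunits of protein kinase A), PRKAG2 (a regulatory subunit of AMP-activated kinase), PIK3AP1 (an adaptor for phosphoinositide 3-kinase), CDK5RAP2 (a centrosome protein) and CAMKMT (a methyltransferase of calmodulin). CAMKMT was the sole gene found under the CAMK stem.

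The measurements come from GRID-seq of K562, an established human leukaemia line with erythroid features that carries the BCR-ABL1 fusion. In this assay an RNA is joined through a linker to the chromatin it lies beside in fixed nuclei, so each molecule read reports an RNA and a DNA position. There were 4 libraries, 2 from cells with wild-type RUNX1 (WT) and 2 from cells with RUNX1 R320*, a change that truncates this transcription factor of blood cells towards its C terminus. Both groups were K562 cells grown in the same medium and fixed with DSG (2 mM, 45 minutes) and then formaldehyde (3%, 10 minutes), and no other treatment is named. The labels say neither whether libraries came from separate cultures nor whether the R320* cells were 1 clone. The authors' table gives 1 score per genotype for each connection, which is a pair of an RNA and an active enhancer or promoter. Each score is either 0 or above 1.2, so a score of 0 is called not listed here rather than absent. A connection is local when the element lies in the RNA's own gene, cis when it lies elsewhere on the same chromosome and trans when it lies on another. With 1 pooled score per genotype there is no replicate check and no test of any difference below, and every SD is a spread over connections or genes. Sequencing depth is unknown, and fewer cells that express a gene cannot be told apart from less RNA per cell.

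Protein kinases pass signals on by adding phosphate to other proteins, and the phosphoinositide kinases do the same to membrane lipids. In K562 the fused BCR-ABL1 tyrosine kinase drives growth through the RAS and MAP kinase cascade, phosphoinositide 3-kinase with AKT, and JAK with STAT signalling. Other members act inside the nucleus: CDK12 and CDK13 phosphorylate RNA polymerase II during elongation, and CDK19 is a kinase of the Mediator complex. PRKDC, also nuclear, is the catalytic subunit of the kinase that repairs DNA breaks. A contact of a kinase gene's RNA with chromatin is a property of the transcript, and says nothing of where the protein works.

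Because RUNX1 binds DNA, the promoters of members on which the results turn are given here, each as the 250 bases before the most upstream RefSeq start (GRCh38.p14), read in the direction of the gene. Capitals mark the 6 letters TGTGGT or TGCGGT on either strand, a short form of the RUNX motif. PAK2 and PRKD3 are shown because each RNA was listed in a single genotype, WT for PAK2 and R320* for PRKD3. CDK13, CDK19 and MAP3K3 are shown as examples of RNAs that met an own promoter holding such letters, and PRKCB because it had the most connections of all members.
PAK2, chr3:196739607-196739856, plus strand: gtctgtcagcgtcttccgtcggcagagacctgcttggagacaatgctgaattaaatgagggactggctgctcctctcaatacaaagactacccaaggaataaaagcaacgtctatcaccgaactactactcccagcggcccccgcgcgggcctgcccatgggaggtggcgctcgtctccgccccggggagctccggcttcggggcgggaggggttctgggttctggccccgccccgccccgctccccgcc
PRKD3, chr2:37324834-37325083, minus strand: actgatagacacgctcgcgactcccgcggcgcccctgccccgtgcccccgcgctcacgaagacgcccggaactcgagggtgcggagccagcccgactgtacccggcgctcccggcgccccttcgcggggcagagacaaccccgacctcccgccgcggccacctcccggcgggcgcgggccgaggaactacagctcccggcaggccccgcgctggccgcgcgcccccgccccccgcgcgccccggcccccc
CDK13, chr7:39950006-39950255, plus strand: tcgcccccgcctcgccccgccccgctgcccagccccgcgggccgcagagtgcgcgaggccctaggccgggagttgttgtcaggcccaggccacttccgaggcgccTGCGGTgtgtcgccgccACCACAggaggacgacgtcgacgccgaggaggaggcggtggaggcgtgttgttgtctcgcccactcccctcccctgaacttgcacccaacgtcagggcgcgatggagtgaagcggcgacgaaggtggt
CDK19, chr6:110815856-110816105, minus strand: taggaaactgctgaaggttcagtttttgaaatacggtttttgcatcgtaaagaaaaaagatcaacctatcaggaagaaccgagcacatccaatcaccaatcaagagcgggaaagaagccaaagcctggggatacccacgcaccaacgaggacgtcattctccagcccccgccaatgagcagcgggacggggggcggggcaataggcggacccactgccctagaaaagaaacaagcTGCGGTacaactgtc
MAP3K3, chr17:63622167-63622416, plus strand: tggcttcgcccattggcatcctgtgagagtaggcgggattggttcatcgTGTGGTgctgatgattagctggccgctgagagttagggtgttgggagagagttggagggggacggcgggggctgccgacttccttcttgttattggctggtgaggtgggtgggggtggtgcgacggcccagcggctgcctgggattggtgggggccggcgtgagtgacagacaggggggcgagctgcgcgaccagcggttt
PRKCB, chr16:23835733-23835982, plus strand: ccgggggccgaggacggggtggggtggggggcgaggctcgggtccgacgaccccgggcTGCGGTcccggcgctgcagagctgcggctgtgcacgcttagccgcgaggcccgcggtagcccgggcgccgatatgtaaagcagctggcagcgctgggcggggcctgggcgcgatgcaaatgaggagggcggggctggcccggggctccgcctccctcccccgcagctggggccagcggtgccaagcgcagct

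The PAK2 and PRKD3 windows hold no match, that of CDK13 holds 2, and those of CDK19, MAP3K3 and PRKCB hold 1 each. Of the 54 members 46 were found in the promoter table, with 78 windows, and 16 windows (20.5%) held either motif against 16.3% of all 34943 windows. TGTGGT was in 11.0% and TGCGGT in 5.82% of all windows, and windows with both count in each. For 36 members a window lies in a promoter element that the RNA met, and for 7 of them such a window held either motif. These matches are letters only, and no binding of RUNX1 was measured. PAK2 RNA met the promoter element that holds its window at 2.19 in WT and was not listed there in R320*. PRKD3 RNA was the reverse, not listed in WT and at 2.90 in R320*. CDK13 RNA met its own promoter at 2.18 in WT and 2.21 in R320*, CDK19 RNA at 2.52 and 2.68, and MAP3K3 RNA at 1.38 and 1.31. The others of the 7 were PRKAR1B (1.98 and 2.06), PRKAR2B (2.00 and 2.14), PRKAG2 (1.82 and 1.92) and DYRK1A (1.59 and 1.69), so all 7 met that promoter in both genotypes. Over all members, with or without such letters, 45 of 52 local promoter connections (86.5%) were in both. The 7 are too few to be set apart from that share. PRKCB RNA was not listed at its own promoter element (chr16:23832021-23840342) in either genotype.

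The members together had 2768 connections, 1893 in WT and 2042 in R320*, with 2590 different elements. Kinase RNAs had a somewhat higher median number of connections than other protein-coding RNAs: 34 connections in WT and 32 in R320* per listed RNA, against 27 and 30. The range was wide, from 3 to 319 in WT and from 4 to 380 in R320*. Of all member connections 1167 (42.2%) were listed in both genotypes, while 875 were in R320* only and 726 in WT only. The background over all protein-coding connections is 48.6% in both. Without PRKCB the members' share is 52.3%, so that single RNA sets the lower value. Most elements met a single member: 2432 of the 2590 did, 142 met 2 members, 14 met 3 and 2 met 5. Over the 54 genes, the rank correlation of gene length with the number of connections was 0.244, and with the highest score -0.641, as a description of genes that share the same libraries. The longest genes thus tended to have lower top scores.

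**Figure D1:**
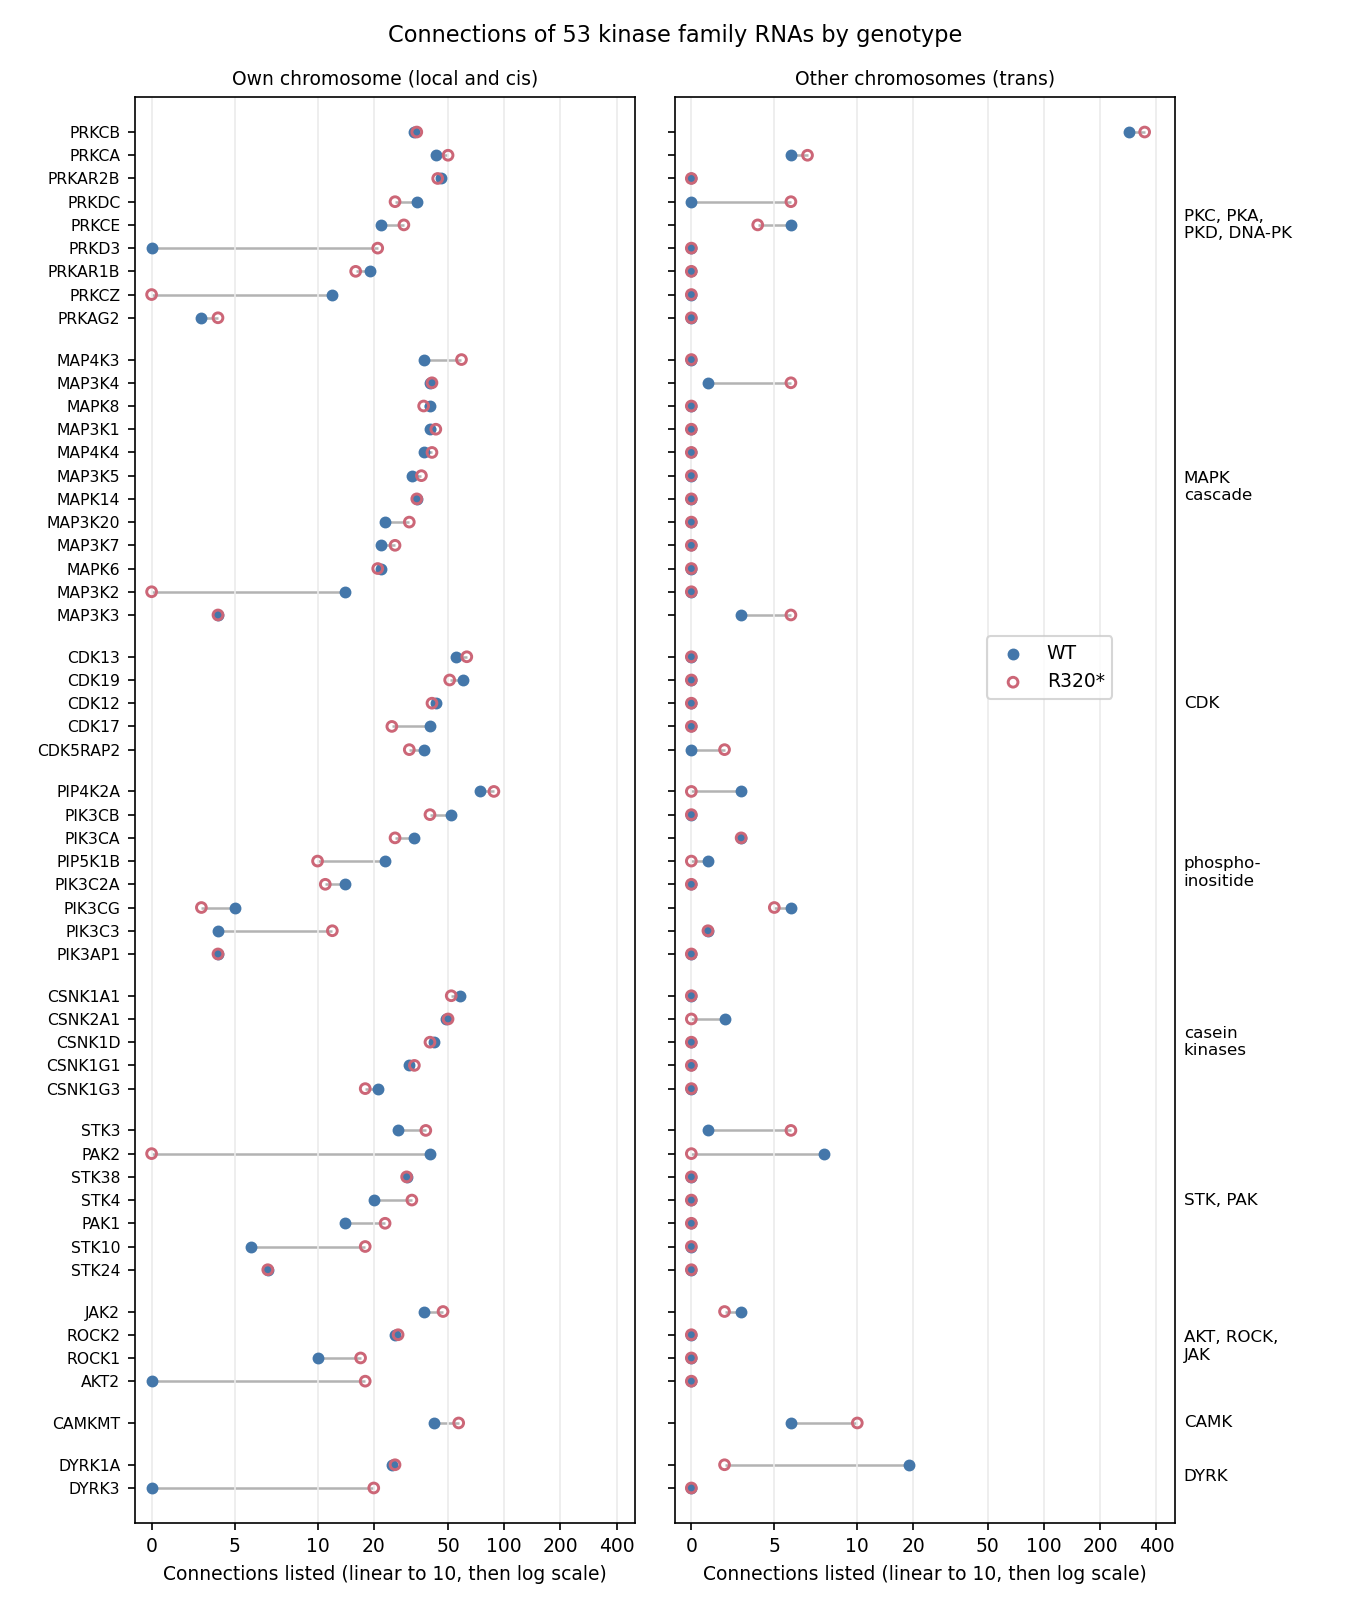
Number of connections listed for 53 of the 54 kinase family RNAs in WT (filled blue) and R320* (open red), on the RNA's own chromosome (left) and on other chromosomes (right), grouped by family. The horizontal axes are linear to 10 and logarithmic above. PRKCB stands apart on the right with 286 and 346, and 6 RNAs have no connection in 1 of the genotypes.

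The share of connections listed in both genotypes varied between families. Casein kinases, broadly acting kinases of circadian, WNT and housekeeping pathways, had the highest share in both genotypes, 69.2% of 234 connections over 5 genes. The 13 genes of the MAP kinase cascade had 56.5% of 554, the 5 CDK genes 55.0% of 289 and the 8 phosphoinositide kinase genes 54.9% of 275. The 9 genes of the protein kinase C, A and D and DNA-PK group had 19.2% of 920, of which PRKCB alone held 643 connections. The largest reach in each family belonged to CSNK1A1 (58 connections in WT and 52 in R320*), CSNK2A1 (51 and 50) and CSNK1D (42 and 40) among casein kinases. Among CDK genes it was CDK13 (55 and 63), CDK19 (60 and 51) and CDK12 (43 and 41). Among phosphoinositide kinases PIP4K2A, which phosphorylates phosphatidylinositol 5-phosphate, led with 77 and 88, followed by PIK3CB (52 and 40) and PIK3CA (36 and 29), the beta and alpha catalytic subunits of phosphoinositide 3-kinase. PRKCA (49 and 57) and PRKAR2B (46 and 44) followed PRKCB, and JAK2, the kinase bound to the erythropoietin receptor, led its group with 40 and 49.

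Kinase RNAs mostly kept the same neighbouring elements in WT and R320* and rarely the same distant ones. Of 105 local connections of members 87.6% were in both genotypes, against 82.2% for other protein-coding RNAs. An RNA listed in 1 genotype alone can share no connection. Such RNAs were 3 in WT and 3 in R320* of the 54 members, against 236 and 191 of 2381 others. Their part in the gaps between members and others was not tested. Of 1877 cis connections 54.6% were in both (52.6% for others), and of 786 trans connections 6.36% (12.7% for others, and also 12.7% for the members without PRKCB). Within 100 kb of the gene, outside it, 87.9% of 290 connections were in both genotypes, against 79.9% for other protein-coding RNAs. The share then fell to 60.5% from 100 kb to 1 Mb, 37.6% from 1 to 5 Mb and 11.9% beyond 5 Mb. The median distance of a cis contact was 445 kb in WT and 483 kb in R320*, against 413 and 453 kb for other protein-coding RNAs. Scores of shared local contacts had a median of 2.11 in WT and 2.12 in R320*, below the 2.27 and 2.31 of other protein-coding RNAs.

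**Figure D2:**
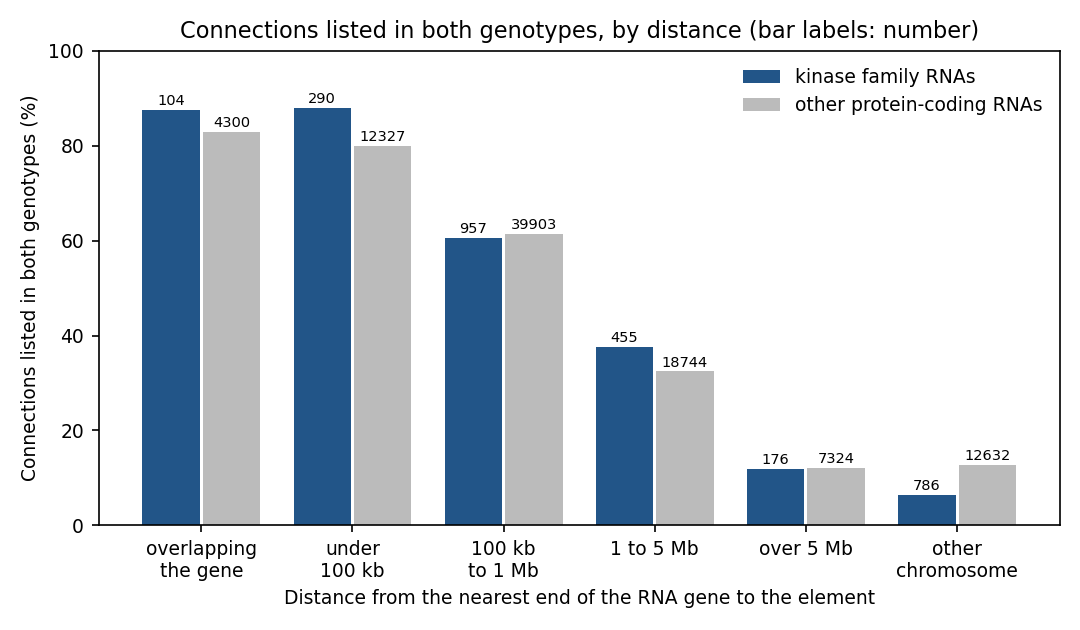
Percent of connections listed in both genotypes (vertical axis) by distance from the nearest end of the RNA's gene to the element, and for other chromosomes, for kinase family RNAs (blue) and other protein-coding RNAs (grey). Numbers over the bars are connections. For the kinase RNAs the share falls from 87.5% for elements overlapping the gene to 6.36% on other chromosomes.

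The highest-scoring contact was local for 8 of the 54 members, cis for 34 and trans for 12, and in 10 of the cis cases the element's nearest gene was the RNA's own. CSNK1D RNA (casein kinase 1 delta, a clock kinase; chr17:82239019-82273750) had the highest score of all, 4.11 in WT and 4.03 in R320*, at an enhancer 5.22 kb beyond its gene (chr17:82278971-82279438). CDK19 RNA scored 4.01 and 4.09 at an enhancer 3.93 kb beyond its gene (chr6:110819780-110820470). STK38 RNA, of an NDR kinase in Hippo signalling, scored 3.97 and 3.80 at an enhancer in KCTD20, 44.4 kb away. CSNK1A1 RNA, of the casein kinase that primes beta-catenin for destruction, scored 3.88 and 3.82 at an enhancer 2.95 kb beyond its gene. These 4 contacts differed between genotypes by less than the SD of 0.239 over all shared member contacts. MAP3K1 RNA scored 3.56 and 3.31 at an enhancer 4.47 kb away, and CDK12 RNA 3.38 and 3.53 at the promoter of its neighbour MED1, a Mediator subunit. The sources used here do not give the counting strand, so RNA of a gene and of a partner that overlaps it in antisense cannot be told apart.

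Some kinase RNAs met elements in or near other kinase genes on the same chromosome. PRKAR2B RNA met 8 elements whose nearest gene is PIK3CG, the gamma catalytic subunit of phosphoinositide 3-kinase used by blood cells, and all 8 were listed in both genotypes. These elements reach from inside PIK3CG to 55.4 kb from it. The scores of PRKAR2B RNA there ran from 1.54 to 3.01 in WT and from 1.64 to 2.97 in R320*. The highest was at an enhancer 48.6 kb from PIK3CG and 86.7 kb from PRKAR2B itself. The PIK3CG promoter, 177 kb from PRKAR2B, stood at 2.46 and 2.47. PIK3CG RNA itself was listed with 11 connections in WT and 8 in R320*. MAPK14 RNA (p38 alpha) met the STK38 promoter, 421 kb away, at 1.85 and 1.93. CAMKMT RNA met 3 elements in or near PRKCE, the gene of protein kinase C epsilon, in both genotypes, for instance at 1.30 and 1.58 inside PRKCE. These lay 870 to 1429 kb from CAMKMT, and further PRKCE elements were listed in 1 genotype only.

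PRKCB RNA (ENSG00000166501.14, chr16:23835983-24220611) encodes protein kinase C beta, a calcium- and diacylglycerol-dependent kinase of blood cells. It had 319 connections in WT and 380 in R320*, the most of any member. Its own chromosome gave 33 in WT and 34 in R320*. Of its 37 cis contacts 28 (75.7%) were in both genotypes, and the strongest, 7.96 kb from the gene, scored 2.05 and 2.07. The remainder was trans, 286 contacts in WT and 346 in R320*, of which 27 of 605 (4.46%) were in both. Its trans number was the second highest among protein-coding RNAs, after LMAN1 with 696. PRKCB held 77.0% of the trans connections of all members, and their trans share of 28.4% (13.0% for other protein-coding RNAs) is 8.52% without it.

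The trans contacts of PRKCB RNA were spread and weak. They touched 21 chromosomes and formed 241 separate places when contacts within 1 Mb were joined. The median trans score was 1.39 in both genotypes, near the minimum of 1.2, and the highest was 1.99 in WT (an enhancer in DUSP22) and 2.18 in R320* (an enhancer in PNPLA1, listed in R320* only). Chromosome 1 held 39 in WT and 69 in R320* (2 shared), and chromosome 22 held 28 and 37 (9 shared). On chromosome 8 there were 7 and 25, and on chromosome 4 there were 3 and 14, with none shared on either. On chromosome 12 there were 14 and 6, again with none shared, so R320* did not have the higher number on every chromosome. The elements PRKCB met in trans were met by a median of 5 RNAs each, against 4 for elements met in trans by other protein-coding RNAs and 2 for all elements. The 27 that were shared between genotypes were met by a median of 29 RNAs. They lie on chromosomes 1, 5, 6, 9, 11, 21 and 22, and include the MALAT1 promoter (1.75 in WT and 1.77 in R320*) and enhancers in ABL1 (1.29 and 1.51) and in BCR (1.53 and 1.28). An enhancer in RUNX1 (chr21:34903972-34911870) scored 1.24 and 1.25, and it was the sole element with RUNX1 as nearest gene met by any member. The long noncoding RNA MALAT1 met 124 of PRKCB's 605 trans elements, which is 20.5% of PRKCB's and 11.7% of MALAT1's own. The promoter element of PRKCB was met by the RNAs of ST7, GGA2 and ENTPD3-AS1, all in WT only.

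**Figure D3:**
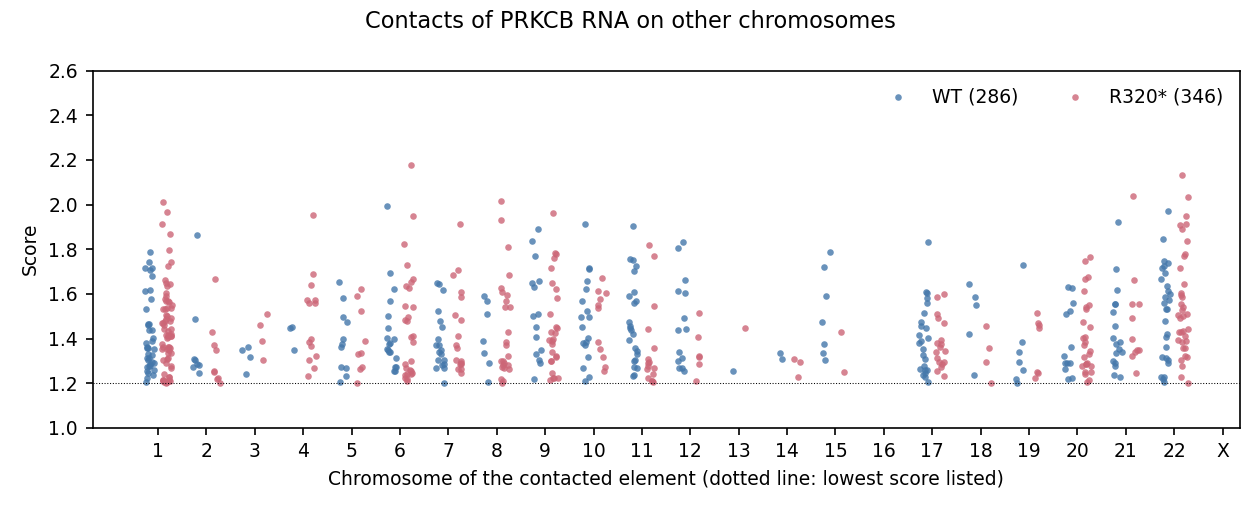
Scores (vertical axis) of trans contacts of PRKCB RNA by chromosome of the contacted element, in WT (blue) and R320* (red); each point is 1 contact, spread sideways for sight, and the dotted line is the lowest score listed, 1.2. The contacts spread over 21 chromosomes and stay at or below 2.18 in both genotypes.

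The other members described here had few trans contacts each. Of the 54 members 35 (64.8%) had none, against 68.2% of other protein-coding RNAs. MAP3K3 RNA, of a kinase upstream of ERK5, had a mere 7 connections in WT and 10 in R320*, with strong contacts in trans at the MALAT1 promoter (3.17 and 3.49) and the MALAT1 enhancer (2.94 and 3.27). Its strongest contact in WT was in cis, at 3.20 in WT and 3.12 in R320*. These MALAT1 elements each met 5 members, the most of any element, and 279 and 271 RNAs in all. At the promoter DYRK1A and PRKCE were listed in WT only (2.45 and 2.57), CAMKMT in R320* only (2.07), and MAP3K3 and PRKCB in both. PIK3CA RNA met an enhancer near CCT8L2 on chromosome 22 at 3.78 and 3.53. The sources used here do not say how reads of near-identical gene copies were placed. Whether the RNA read at that enhancer came from the PIK3CA gene itself was not tested. CAMKMT had 6 trans contacts in WT and 10 in R320*, PRKCA 6 and 7, and PIK3CG 6 and 5, with none shared for any of these.

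In total reach, the kinase RNAs differed little between genotypes. Ratios were taken for the 33 members listed in both genotypes with a mean of at least 25 connections, since small numbers give unsteady ratios. No member had 2-fold more or 2-fold fewer connections in R320*; the background over 1226 protein-coding RNAs is 0.571% for more and 0.326% for fewer. In all 18 had more connections in R320*, 13 fewer and 2 the same number, which is 54.5% and 39.4% against a background of 58.6% and 36.2%. The median log2 ratio of R320* over WT was 0.09 (SD 0.34 over genes), against 0.08 over all protein-coding RNAs. A 1.5-fold threshold, chosen after the values were seen, takes 4 members with more (12.1%; background 5.22%) and 2 with fewer (6.06%; background 2.37%).

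**Figure D4:**
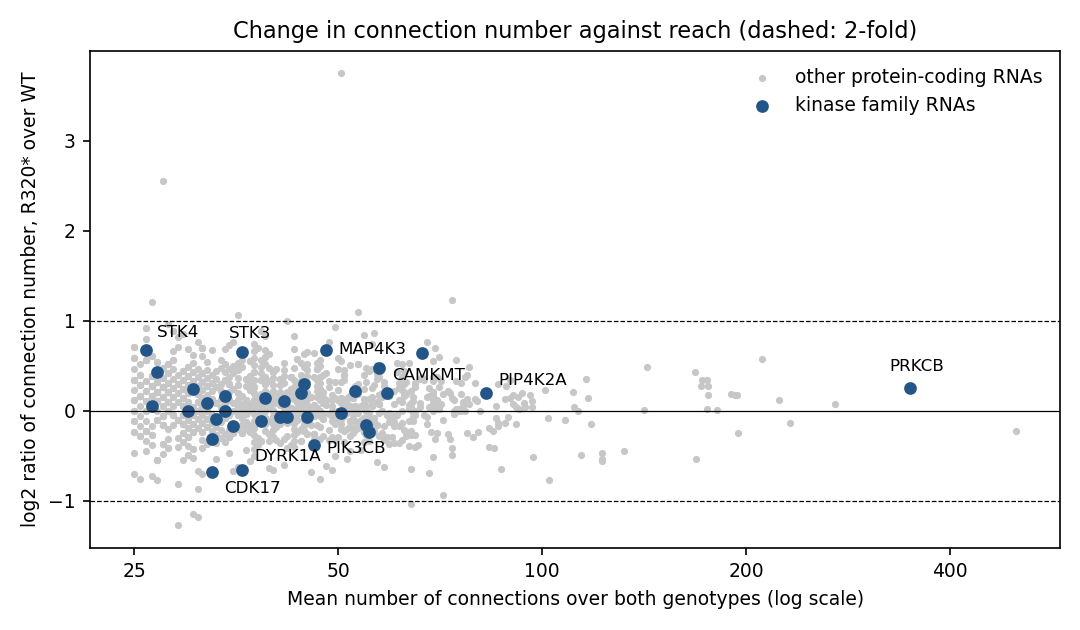
log2 ratio of the number of connections in R320* over WT (vertical axis) against the mean number over both genotypes (horizontal, log scale), for 33 kinase family RNAs (blue) and the other protein-coding RNAs (grey) with a mean of at least 25. Dashed lines mark 2-fold. The kinase RNAs lie between -0.68 and 0.68, inside the dashed lines.

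Of those with more that are described here, MAP4K3 (chr2:39249266-39437285), a kinase of amino acid sensing upstream of mTOR, had 37 in WT and 59 in R320*, all on its own chromosome (log2 ratio 0.67). Its 31 shared contacts lay at a median of 421 kb, and the 28 listed in R320* only at 2171 kb, with a highest score of 2.19. Those 28 form 3 places when contacts within 1 Mb are joined. RNAs of genes within 1 Mb of MAP4K3, protein-coding or not, had a median log2 ratio of 0.05 (2 more, 1 fewer). STK3 and STK4 encode MST2 and MST1, the paired core kinases of the Hippo pathway, and both had more: STK3 28 in WT and 44 in R320* (0.65), and STK4 20 and 32 (0.68). STK38, also of Hippo signalling, had 30 in each genotype. All 20 WT contacts of STK4 (chr20:44966512-45080021) were also in R320*, which added 12 in cis at a median of 747 kb. Those 12 form 1 place when contacts within 1 Mb are joined. STK3 shared 22 contacts, and had 6 in WT only and 22 in R320* only, 6 of those in trans. Joined likewise, its 22 in R320* only form 7 places. CAMKMT (48 and 67, 0.48), MAP3K20 (23 and 31, 0.43), JAK2 (40 and 49, 0.29) and PRKCB (0.25) followed. For RNAs of genes within 1 Mb, the median log2 ratio was 0.58 beside MAP3K20 (4 more, 0 fewer) and 0.32 beside CAMKMT (5 and 1). It was 0.34 beside JAK2 (2 and 0), and 0 beside STK3 and PRKCB (1 and 1 each). The part of such neighbourhoods in the member values was not tested. JAK2 kept 37 of its 40 WT contacts.

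Of those with fewer, CDK17 (chr12:96278225-96400439), a PCTAIRE kinase, had 40 in WT against 25 in R320*, a log2 ratio of -0.68, with 18 shared. The 22 in WT only form 5 places when contacts within 1 Mb are joined. CDK17 is the sole member on chromosome 12. There the other protein-coding RNAs past the minimum had a median log2 ratio of -0.18, with 3 of 32 having more and 27 fewer. The part of that chromosome in the CDK17 value was not tested. DYRK1A (chr21:37365573-37526358), a kinase whose gene dose matters in Down syndrome, had 44 and 28 (-0.65). Its own chromosome was level, with 25 in WT and 26 in R320*. Its trans contacts numbered 19 in WT and 2 in R320* with none shared. Joined within 1 Mb, they form 9 places in WT and 2 in R320*. In WT 7 of the 19 were on chromosome 17, and the highest score was 2.57, at GRPEL1. PIK3CB (52 and 40, -0.38), PIK3CA (36 and 29, -0.31), CDK19 (60 and 51, -0.23), CDK5RAP2 (37 and 33, -0.17), CSNK1A1 (58 and 52, -0.16) and MAPK8 (40 and 37, -0.11) followed. PIK3CA and PIK3CB thus both had fewer, while PIP4K2A had more (0.19).

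Below the minimum, 3 RNAs, named after their values were seen, differed more in ratio but on small numbers. PIP5K1B, a phosphatidylinositol 4-phosphate 5-kinase, had 24 connections in WT and 10 in R320*, and all 10 were also in WT. STK10, a kinase of lymphocytes, had 6 in WT, all kept, and 18 in R320*. PIK3C3, the VPS34 kinase of autophagy, had 5 and 13, with 3 shared. The strongest WT-only contacts of PIP5K1B, at CBWD2 on chromosome 2 (2.94) and PGM5P3-AS1 on chromosome 9 (1.91), lie in gene families with near-identical copies, and the sources used here do not say how reads of such copies were placed.

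Each genotype had 3 members that the other did not list, 5.56% of the 54, against a background of 9.82% in WT only and 7.97% in R320* only. In WT only these were PAK2 (chr3:196739857-196832647), a kinase activated by RAC and CDC42, with 48 connections, MAP3K2 with 14 and PRKCZ, an atypical protein kinase C, with 12. In R320* only they were PRKD3 (chr2:37250502-37324833), a protein kinase D, with 21, DYRK3 with 20 and AKT2, a kinase downstream of phosphoinositide 3-kinase, with 18. PAK2 had 2 local, 38 cis and 8 trans contacts, the highest at 3.01 in trans at an enhancer in C1orf116. MAP3K2 RNA scored 3.58 at the promoter of its neighbour ERCC3, a subunit of TFIIH, and PRKCZ 3.04 at an enhancer in FAAP20. PRKD3 reached 3.07 at an enhancer in SULT6B1, AKT2 3.31 at an enhancer in its own gene and DYRK3 3.09 likewise. Other RNAs met 45 of the 48 PAK2 elements, with 154 connections in WT and 139 in R320*. They met all 21 PRKD3 elements (148 and 161), all 20 of DYRK3 (75 and 82), all 14 of MAP3K2 (57 and 69) and all 12 of PRKCZ (18 and 15). For AKT2 they met 12 of 18 (13 and 8), so the remaining AKT2 elements were in the table through AKT2 RNA alone. The listed RNAs of genes within 1 Mb were in both genotypes for PAK2 (3 RNAs), PRKD3 (5), MAP3K2 (4), PRKCZ (2) and AKT2 (2). Beside DYRK3, 3 of 4 were in both and 1 was in R320* only. RNA level was not measured here, so less RNA and fewer contacts of that RNA cannot be told apart.

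Scores of contacts listed in both genotypes were close. The median difference (R320* minus WT) over the 1167 shared contacts was 0.0491 (SD 0.239), against 0.0395 for other protein-coding RNAs, and 713 (61.1%) were higher in R320* (58.7% for others). A contact that dropped below 1.2 is not in this set, which narrows the differences. A score at least 1 unit higher was found for 1 contact (0.0857%; background 0.0972%), and at least 1 unit lower for 0 (background 0.0765%). At 0.5 unit there were 45 higher (3.86%; background 3.57%) in 24 genes and 24 lower (2.06%; background 2.05%) in 16 genes. These shares are close to the background.

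The largest differences with a higher score in R320* were all in cis, at elements that were near the minimum in WT. STK38 RNA at an enhancer by ETV7, a blood transcription factor gene 140 kb away, scored 1.21 in WT and 2.24 in R320*. MAP3K20 RNA, of the ribosome stress kinase ZAK, scored 1.22 and 2.17 at an enhancer near OLA1. CSNK1G3 RNA scored 1.30 and 2.20 at an enhancer in SNX24, CSNK1D RNA 1.23 and 2.06 at the LRRC45 promoter, MAP4K3 RNA 1.25 and 2.03 near ATL2, and CSNK1A1 RNA 1.23 and 2.02 in SH3TC2-DT. All 6 were 1.30 or lower in WT.

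The largest differences with a lower score in R320* included a group of neighbouring elements. MAP4K4 RNA, of a kinase upstream of JNK, scored 2.21 in WT and 1.37 in R320* at the promoter of IL18RAP, a subunit of the interleukin-18 receptor, 523 kb away. Enhancers beside it stood at 2.34 and 1.62, and at 2.13 and 1.36, so all 3 elements nearest IL18RAP were lower in R320*. MAPK14 RNA scored 2.13 and 1.35 at the promoter of FKBP5, a glucocorticoid-induced cochaperone. CDK17 RNA scored 2.25 and 1.58 near USP44, JAK2 RNA 1.98 and 1.30 in KIAA2026, and MAPK6 (ERK3) RNA 2.19 and 1.59 at the TMOD3 promoter.

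**Figure D5:**
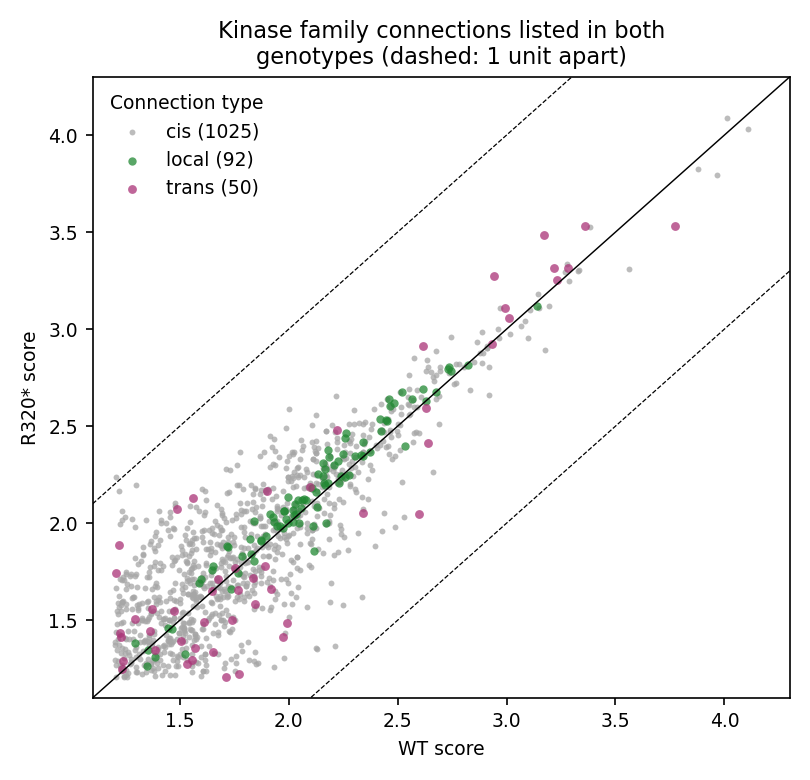
Score in R320* (vertical) against score in WT (horizontal) for the 1167 connections of kinase family RNAs listed in both genotypes: 1025 cis (grey), 92 local (green) and 50 trans (purple). The solid line is equality and dashed lines lie 1 unit apart from it. Local contacts lie close to the line, and 1 cis contact, STK38 at ETV7, lies past the upper dashed line.

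Partners of these kinases outside the name rule were taken from lists of pathway genes. Of 39 RAS, RAF, phosphoinositide 3-kinase and mTOR partners 19 were listed: 10 had more connections in R320*, 6 fewer, 1 the same number and 2 were in WT only, and none of the 14 past the minimum changed 2-fold. The adaptor GRB2 and the phosphatase PTPN11 were the RNAs listed in WT only, with 44 and 25. The exchange factor SOS1 had 87 and 71, and BRAF 81 and 65. Of 9 JAK partners 3 were listed, with STAT5B at 58 and 75, STAT3 at 45 and 42, and STAT5A at 4 in WT only. Of 24 CDK partners 7 were listed, 3 with more and 4 with fewer, among them the CDK7 cyclin CCNH (20 and 32) and the Mediator kinase module gene MED13L (86 and 61). Of 14 protein kinase A and calcium partners 2 were listed, the phosphodiesterase PDE8A at 34 and 65 and the anchoring protein AKAP9 at 42 and 43. As a check of the line, 10 of 16 genes known from K562 were listed and 0 of 15 markers of other blood cells.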

How the data were processed

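GRID-seq was made on 4 K562 libraries, 2 per RUNX1 genotype. Reads went through cutadapt 1.12, BWA and bedtools on hg38, per the submitters' processing notes. The authors deposited 1 table of RNA to element connections with a score per genotype and a further score that is the R320* score minus the WT score. The sources used here do not give how the score was computed, its scale, or how libraries were pooled. A score of 0 was read as not listed.

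Members and gene lists were chosen with earlier results of these data known. Listed connections per RNA were counted by genotype, and log2 ratios were taken for RNAs in both genotypes with a mean of at least 25. Shared connections were compared by score difference, with thresholds of 1 and 0.5 unit, since the score has no known ratio scale; the design had allowed for this case. All features of the table were processed and members were set beside all protein-coding RNAs. Gene positions came from RefSeq (GRCh38.p14) for all 54 members. Distance ran from the nearest gene end, and element starts are printed counting from 1.

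Named genes were, per family, the 3 with most connections; the 8 largest ratios in each direction; those listed in 1 genotype; the 6 largest score differences in each direction, 1 per gene; the 8 highest scores; the 6 with most trans contacts; the 5 elements meeting most members; and the 6 members that are not catalytic. Others were named after their values were seen. Some items taken by it are not reported here but stay in the counts. Counting was tested on simulated data. Python 3.11.15, pandas 2.3.3, numpy 2.4.6, scipy 1.17.1 and matplotlib 3.10.9 were used. Alternatives changed the minimum, the connection types, the score minimum, the merging of neighbours, the element kind and the members.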

Additional observations from a re-analysis of the deposited data

How the results depend on the processing

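Of 60 values recomputed under alternatives, 45 stayed close to the main value, 15 moved and 0 changed sign. Close meant within a 95% interval of a share or median, or within 1.5-fold for a number of members or contacts. These intervals treat connections or genes as independent, which connections of 1 RNA are not. They serve as a yardstick only and measure no spread between libraries. The share of member connections in both genotypes (42.2%) became 56.4% for local and cis connections, 45.6% with scores of at least 1.5, 30.5% with connections of 1 RNA merged within 1 Mb and 52.3% without PRKCB. The trans share (28.4%) became 20.7% with scores of at least 1.5, 65.4% after merging and 8.52% without PRKCB. With no minimum on the mean, 1 member had 2-fold fewer and 2 had 2-fold more connections in R320*. With promoters alone the median log2 ratio was 0.25, from the 1 member past the minimum. Centring took the median score difference to 0.00963. Contacts higher by 1 unit became 0 with scores of at least 1.5 and 0 after centring. At 0.5 unit 45 were higher and 24 lower. The alternatives without PRKCB and without the 6 members that are not catalytic were chosen after seeing the data; the planned choice of catalytic members by protein motif was not run, since protein sequences were not used here. Merging left 1 member past the minimum. No paired analysis was possible because the table gives 1 pooled score per genotype, and leaving out a replicate was not possible for the same reason. Depth is unknown, so no counting error can be given for a contact near 1.2.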
